A study of Mus musculus with 4 samples.

Results

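Lipid handling in macrophages was followed through 10 genes in RNA sequencing data from duct cells of the mouse pancreas: Apoe, Lrp1, Lpl, Cd36, Abca1, Abcg1, Trem2, Gpnmb, Fabp5 and Plin2. All 10 of 10 were found by name among the 52535 gene models of the count files, and 10 passed the filter on low counts. They were chosen as a set partly because Apoe and Lrp1 were higher in the knockout-labelled libraries. Their differences between genotypes are therefore given as a description and without p-values. The test applied to all genes also covered them, and nothing is read from their calls. The study sequenced 2 wild-type libraries (WT 1 and WT 2) and 2 libraries labelled Lats1/2 KO (KO 1 and KO 2), all from pancreatic ductal cells of C57BL/6 mice. The knockout genotype reads Lats1fl/fl; Lats2fl/fl; Sox9-CreER, that is, floxed alleles of both kinases together with a tamoxifen-dependent Cre driven by Sox9, a transcription factor of duct cells. The labels do not state whether wild-type animals carried floxed alleles, Cre or tamoxifen, nor the isolation of the cells, the animals' ages or the interval since induction. Nothing says that the libraries of a group came from separate animals, so the p-values below measure only the spread between these samples, which may be technical.

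Macrophages that take up dying cells and matrix have to dispose of the lipid they ingest. Lipoproteins and lipid debris enter through receptors such as LRP1 and CD36, fatty acids released by lipoprotein lipase are carried in the cytosol by binding proteins such as FABP5 and stored in droplets coated by PLIN2, and cholesterol leaves through ABCA1 and ABCG1 onto acceptors that include APOE. TREM2 is a lipid-sensing receptor of macrophages and microglia, and GPNMB is a lysosome-linked membrane glycoprotein that such lipid-loaded macrophages express strongly. None of these genes is restricted to macrophages: hepatocytes make APOE, fibroblasts carry LRP1, adipocytes express LPL and CD36, and many cell types form PLIN2-coated droplets.

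Libraries held between 3566387 and 5925601 counts. Levels are CPM (counts scaled to library size) after scaling by the trimmed mean of M values (TMM), and 3 counts in a library corresponded to 0.486 to 0.824 CPM. The deleted genes were no lower in knockout-labelled libraries, in which Lats1 differed by 0.36 ± 0.19 (SE) and Lats2 by 0.39 ± 0.19 in log2 units (adjusted p from edgeR = 0.172 and 0.127). Lats2 passed as higher without KO 2 (adjusted p = 0.036) and with no filter on low counts (0.0433). Counts over whole gene models include transcripts that lack only the floxed exons, and the groups are therefore named by their labels. The labelled cell type was represented in both groups, since the duct markers Krt8, Krt18 and Krt19 were present in every library. Markers of other cells were present as well and are given beside the results they accompany. In bulk RNA of this kind, more cells of a type and more RNA per cell cannot be told apart.

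Of the 10 genes, 7 stood higher in both libraries labelled knockout than in both wild-type libraries, and Cd36, Abcg1 and Fabp5 did not. Across all 13990 genes tested, 37.4% had both knockout-labelled libraries above both wild-type ones, 36.8% had both below, and 74.3% were separate in either direction. By the test applied to all genes (the quasi-likelihood test of edgeR, Benjamini-Hochberg adjusted, threshold 0.05), 7 of the 10 were called higher and 0 lower, beside 22.0% and 20.2% of all genes tested (42.2% in either direction). Without WT 2, KO 1 or KO 2, some of the 7 lost their call. Leaving out any 1 library also lowered the number of calls over all genes. Nothing is read from these counts, since the set was chosen in part on this contrast. The median log2 difference of the 10 genes was 2.11, against -0.01 for all genes tested.

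**Figure D1:**
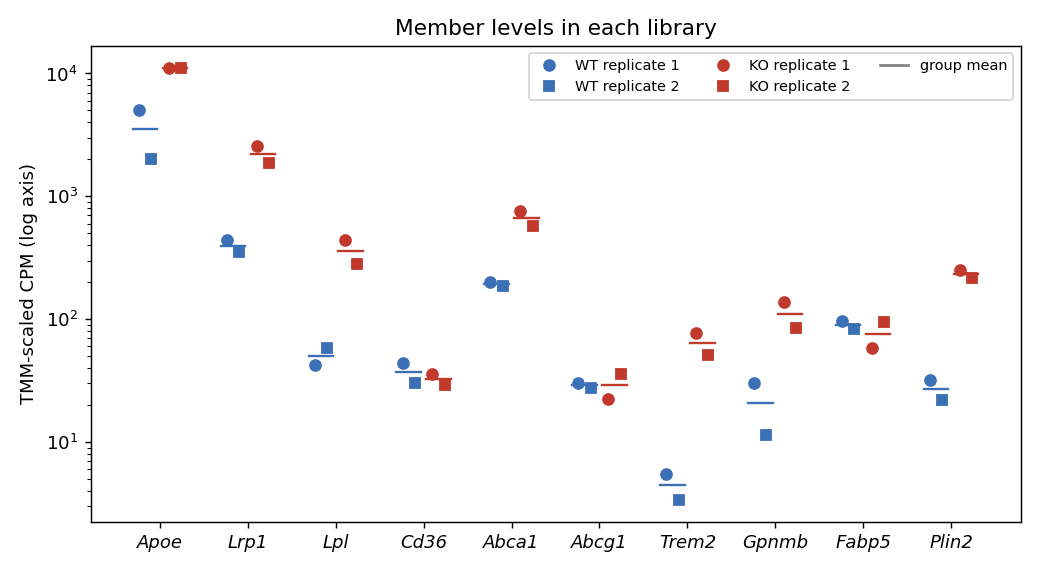
TMM-scaled CPM (log axis) of the 10 genes in each of the 4 libraries, with wild type in blue, knockout-labelled in red, replicate 1 as circles, replicate 2 as squares and a bar at each group mean. The red points lie above the blue points for 7 genes and intermix with them for Cd36, Abcg1 and Fabp5.

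Levels were also compared between genes after division by exon length (union of GENCODE M21 exons), as CPM per kilobase (RPKM). The sources used here do not state how introns were counted, so this order is approximate. In wild type Apoe stood far above the others at 1649 ± 990 RPKM (SD, n = 2). Below it came Fabp5 at 25.2 ± 2.45, Lrp1 at 22.4 ± 3.53 and Abca1 at 18.6 ± 1.14 RPKM, of which Fabp5 and Lrp1 overlapped between libraries. Cd36 (10.3 ± 2.68 RPKM) and Plin2 (7.71 ± 2.04) overlapped each other, Lpl (4.80 ± 1.04), Abcg1 (3.97 ± 0.250) and Gpnmb (3.20 ± 2.04) overlapped in turn, and Trem2 was lowest at 0.896 ± 0.304 RPKM. In the libraries labelled knockout Apoe was again highest at 5223 ± 7.72 RPKM, followed by Lrp1 at 126 ± 28.7. Plin2 (66.8 ± 7.68 RPKM) and Abca1 (64.2 ± 13.0) overlapped next, ahead of Lpl at 34.5 ± 10.6. Fabp5 (21.4 ± 7.15 RPKM), Gpnmb (17.1 ± 5.66) and Trem2 (12.9 ± 3.67) overlapped with their neighbours, and Cd36 (9.02 ± 1.28) and Abcg1 (3.99 ± 1.32) closed the order. Against the wild-type order, Fabp5 (rank 2 to 6), Cd36 (5 to 9) and Abcg1 (8 to 10) stood lower. Lrp1 (rank 3 to 2), Plin2 (6 to 3), Lpl (7 to 5), Gpnmb (9 to 7) and Trem2 (10 to 8) stood higher, and Apoe and Abca1 kept their ranks.

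Promoter windows were available in the RefSeq table (GRCm38.p6, the build called mm10) for 7 of the 10 genes, in 9 windows, because Apoe has 3. The 250 bases before each start site were searched on both strands for TGAGTCA (the AP-1 site), GGAATG (TEAD, the DNA-binding partner of YAP), CACGTG (E-box, bound by MiT/TFE factors), the palindromic lysosomal CLEAR element, which contains the E-box, and direct repeats of AGGTCA. The repeats were spaced by NNNN, as bound by liver X receptors, or by N, as bound by PPAR factors, and up to 2 mismatches outside the spacer were allowed. The title of the series names YAP and AP-1. No AP-1 letters lay in the 9 windows (4.46% of all 32851 windows hold them), and TEAD letters lay in 1 of 9, the third Apoe window (12.6% of all). The E-box lay in the Abca1 window alone (6.02% of all) and the CLEAR letters in none (0.24%). No window held the liver X receptor repeat within the 2 mismatches allowed (2.57% of all), including those of Apoe and Abca1. Repeats that differ at more letters are missed by this search, so it cannot show that a window lacks such a site. The PPAR repeat lay in the windows of Cd36 and Plin2 (3.24% of all), with 2 mismatches in each. With 1 mismatch allowed, the PPAR repeat was in none of the 9 (0.484% of all). These are matches of letters within short windows and do not show binding. The 4 windows with a match are shown, the matched letters in capitals. They are on the minus strand, at chr7:19698399-19698648 for Apoe, chr4:53159896-53160145 for Abca1, chr5:17835897-17836146 for Cd36 and chr4:86670060-86670309 for Plin2. Those of Apoe and Cd36 lie inside their gene models, before internal start sites. The Apoe window at the outer start of its model (chr7:19699189-19699438) held no TEAD letters.
Apoe, TEAD letters: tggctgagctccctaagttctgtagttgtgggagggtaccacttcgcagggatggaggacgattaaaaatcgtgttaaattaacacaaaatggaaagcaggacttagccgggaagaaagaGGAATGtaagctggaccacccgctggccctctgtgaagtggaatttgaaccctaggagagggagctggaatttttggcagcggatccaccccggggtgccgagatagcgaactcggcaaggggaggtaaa
Abca1, E-box: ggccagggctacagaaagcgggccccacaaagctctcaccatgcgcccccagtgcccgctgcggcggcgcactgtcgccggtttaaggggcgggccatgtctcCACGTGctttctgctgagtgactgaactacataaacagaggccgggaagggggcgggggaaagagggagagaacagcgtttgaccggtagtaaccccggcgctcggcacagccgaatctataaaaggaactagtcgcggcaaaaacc
Cd36, PPAR repeat: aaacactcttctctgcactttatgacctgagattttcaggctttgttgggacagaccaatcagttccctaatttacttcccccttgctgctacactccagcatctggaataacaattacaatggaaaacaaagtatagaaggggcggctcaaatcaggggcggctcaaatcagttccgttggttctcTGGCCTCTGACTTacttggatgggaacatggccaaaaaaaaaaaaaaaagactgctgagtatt
Plin2, PPAR repeat: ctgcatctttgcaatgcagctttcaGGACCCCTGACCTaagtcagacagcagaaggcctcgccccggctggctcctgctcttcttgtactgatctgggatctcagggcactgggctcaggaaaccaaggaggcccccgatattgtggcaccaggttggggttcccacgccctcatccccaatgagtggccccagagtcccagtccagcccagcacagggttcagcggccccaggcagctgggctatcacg

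Apoe encodes the apolipoprotein that carries cholesterol out of macrophages and back to receptors (mm10, chromosome 7, 19696109 to 19699188, minus strand). It was among the most abundant transcripts of these libraries, at rank 16 in WT 1, 46 in WT 2, 2 in KO 1 and 1 in KO 2 by counts, where it took 1.09% and 1.17% of all counts in the knockout-labelled libraries. Its level was 5021 CPM in WT 1, 2029 CPM in WT 2, 11155 CPM in KO 1 and 11178 CPM in KO 2. The libraries labelled knockout were nearly equal and both above wild type, while the wild-type libraries were far apart. The log2 difference was 1.66 ± 0.42 (SE), a 3.17-fold higher mean.

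Transcripts of liver cells were much higher in WT 1 than in the other libraries. A list of 10 hepatocyte genes, added after the apolipoprotein values had been seen, summed to 8315 CPM in WT 1, 234 in WT 2, 28.6 in KO 1 and 21.04 in KO 2, and 10 of 10 genes were higher in WT 1 than in WT 2. Of the 8 tested, edgeR called 0 lower, 0 also at an unadjusted p under 0.05, while DESeq2 called 6 lower. Alb, serum albumin, stood at 5788, 139, 3.22 and 1.13 CPM in WT 1, WT 2, KO 1 and KO 2, and Fgb and Serpina1c were at 0 counts in both libraries labelled knockout. Without WT 1 the Apoe log2 difference was 2.47, and without WT 2 it was 1.16. WT 1 had the higher Apoe level of the wild-type pair, so the difference is larger without it whatever the source of that Apoe. The part of hepatocyte RNA in the Apoe difference was not tested.

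**Figure D2:**
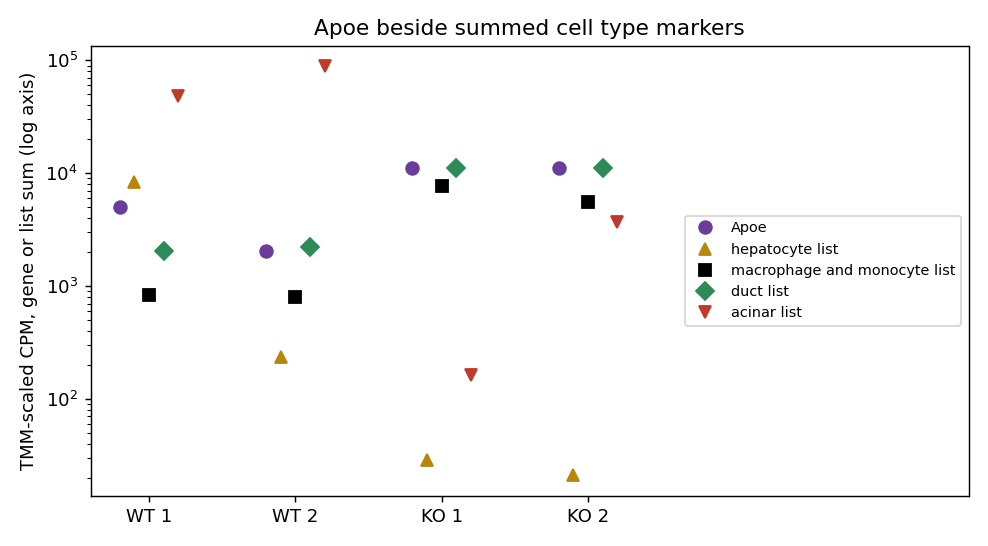
TMM-scaled CPM (log axis) of Apoe (purple circles) in each library beside the summed CPM of the hepatocyte, macrophage, duct and acinar marker lists. Apoe is higher in WT 1 than in WT 2 together with the hepatocyte list, and in KO 1 and KO 2 it is at 11155 and 11178 CPM with the hepatocyte list at 28.6 and 21.04 CPM.

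Lrp1 encodes a large endocytic receptor for APOE-containing remnants, proteases and other ligands (chromosome 10, 127538161 to 127621148, minus strand). It stood at 442 CPM in WT 1, 354 in WT 2, 2590 in KO 1 and 1870 in KO 2. Both knockout-labelled libraries were several-fold above both wild-type libraries. The log2 difference was 2.49 ± 0.24 (SE), 5.61-fold, and it ranged from 2.24 to 2.74 over all alternatives of scaling, filtering, tool and left-out library.

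Lpl encodes lipoprotein lipase, which frees fatty acids from circulating lipoproteins (chromosome 8, 68880491 to 68907448, plus strand). It stood at 42.6 CPM in WT 1, 58.0 in WT 2, 440 in KO 1 and 283 in KO 2. The groups were well apart, and KO 1 was the highest. The log2 difference was 2.84 ± 0.27 (SE), 7.17-fold.

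The fatty acid receptor and the fatty acid binding protein did not share this difference. Cd36, a scavenger receptor and fatty acid translocase (chromosome 5, 17781690 to 17888801, minus strand), stood at 44.0 CPM in WT 1, 30.3 in WT 2, 35.6 in KO 1 and 29.1 in KO 2. Its groups overlapped, at a log2 difference of -0.20 ± 0.25 (SE). Fabp5, which carries fatty acids in the cytosol of macrophages and epithelia (chromosome 3, 10012548 to 10016607, plus strand), stood at 96.2 CPM in WT 1, 83.8 in WT 2, 58.2 in KO 1 and 94.2 in KO 2. KO 1 alone was low and KO 2 lay within the wild-type range, for a log2 difference of -0.24 ± 0.24 (SE). The signs of both differences depended on the libraries: Cd36 ranged from -0.44 to 0.11 and Fabp5 from -0.60 to 0.07 over the alternatives.

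Both cholesterol exporters differed from each other. Abca1 moves cholesterol and phospholipid onto lipid-poor apolipoproteins (chromosome 4, 53030787 to 53159895, minus strand). It stood at 201 CPM in WT 1, 185 in WT 2, 760 in KO 1 and 570 in KO 2. Both knockout-labelled libraries were above both wild-type ones, with a log2 difference of 1.78 ± 0.19 (SE), 3.44-fold. Abcg1, which exports cholesterol to mature high-density particles (chromosome 17, 31057698 to 31115777, plus strand), stood at 30.2 CPM in WT 1, 27.6 in WT 2, 22.3 in KO 1 and 35.9 in KO 2. The wild-type libraries lay between the knockout-labelled ones. Its log2 difference was 0.02 ± 0.27 (SE) and took either sign over the alternatives (-0.34 to 0.32).

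Trem2, the lipid-sensing receptor (chromosome 17, 48346401 to 48354147, plus strand), was the rarest of the 10 in wild type, with 20 and 15 counts. It stood at 5.50 CPM in WT 1, 3.37 in WT 2, 76.5 in KO 1 and 50.8 in KO 2. The knockout-labelled libraries were far above the wild-type ones. The log2 difference of 3.85 ± 0.33 (SE), 14.5-fold, exceeded those of the other 9 genes, and it ranged from 3.53 to 4.24 over the alternatives.

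Gpnmb, the lysosome-linked glycoprotein (chromosome 6, 49036546 to 49070929, plus strand), stood at 30.2 CPM in WT 1, 11.5 in WT 2, 137 in KO 1 and 85.1 in KO 2. The groups were separate, and the wild-type libraries were far apart. The log2 difference was 2.43 ± 0.55 (SE), 5.38-fold, and 3.29 without WT 1. Plin2, the coat protein of lipid droplets in most tissues (chromosome 4, 86648386 to 86670060, minus strand), stood at 32.2 CPM in WT 1, 22.0 in WT 2, 254 in KO 1 and 216 in KO 2. Both knockout-labelled libraries were high and close to each other. The log2 difference was 3.12 ± 0.22 (SE), 8.69-fold. The exons of the 10 genes overlapped no exon of another named model in GENCODE M21.

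Within a genotype, the 10 genes varied in ways that the choice of members did not use. In the libraries labelled knockout the summed macrophage markers were 1.41 times higher in KO 1 than in KO 2. The ratio of KO 1 to KO 2 was 1.61 for Gpnmb (95% exact binomial interval 1.44 to 1.81), 1.55 for Lpl (1.46 to 1.65) and 1.505 for Trem2 (1.29 to 1.75). Lrp1 was at 1.38 (1.35 to 1.42) and Abca1 at 1.33 (1.27 to 1.40). Plin2 was at 1.18 (1.09 to 1.27). These 6 genes lay on the same side as the macrophage markers, with intervals above 1. Other summed marker lists were above 1 too, among them fibroblast and stellate (1.56), smooth muscle (1.73), T and NK cell (2.22) and B cell (2.40). The summed acinar (0.0439) and neutrophil (0.919) lists were below 1. Cd36 was at 1.22, with an interval that included 1 (0.988 to 1.51). Apoe was at 0.998 (0.987 to 1.01). The summed duct markers were at 1.01, but the median ratio of the 12 duct genes was 0.744. Abcg1 at 0.622 (0.490 to 0.784) and Fabp5 at 0.617 (0.534 to 0.712) were lower in KO 1, the opposite way to the summed macrophage markers. Over 9747 genes with a mean of at least 10 CPM, the middle 90% of such ratios lay between 0.621 and 1.58. The intervals cover counting error only and the ratios compare 2 libraries, not conditions. The ratios also depend on the scaling. By library size without TMM, the ratio of KO 1 to KO 2 was 0.936 for Apoe and 1.10 for Plin2. That of WT 1 to WT 2 was 2.69 for Apoe on the same scaling. In the wild-type pair, where the summed macrophage markers were level (1.05), Apoe was 2.47 times (2.41 to 2.54) and Gpnmb 2.64 times (1.88 to 3.75) higher in WT 1, outside the middle 90% of all genes (0.648 to 1.58). Trem2, at 1.63, was also outside that range, with an interval that included 1 (0.793 to 3.42). Plin2 at 1.46 (1.11 to 1.93), Cd36 at 1.45 (1.15 to 1.84) and Lrp1 at 1.25 (1.17 to 1.34) were higher in WT 1 as well. The intervals of Abca1, Abcg1 and Fabp5 included 1. Lpl was lower in WT 1, at 0.735 (0.598 to 0.900).

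**Figure D3:**
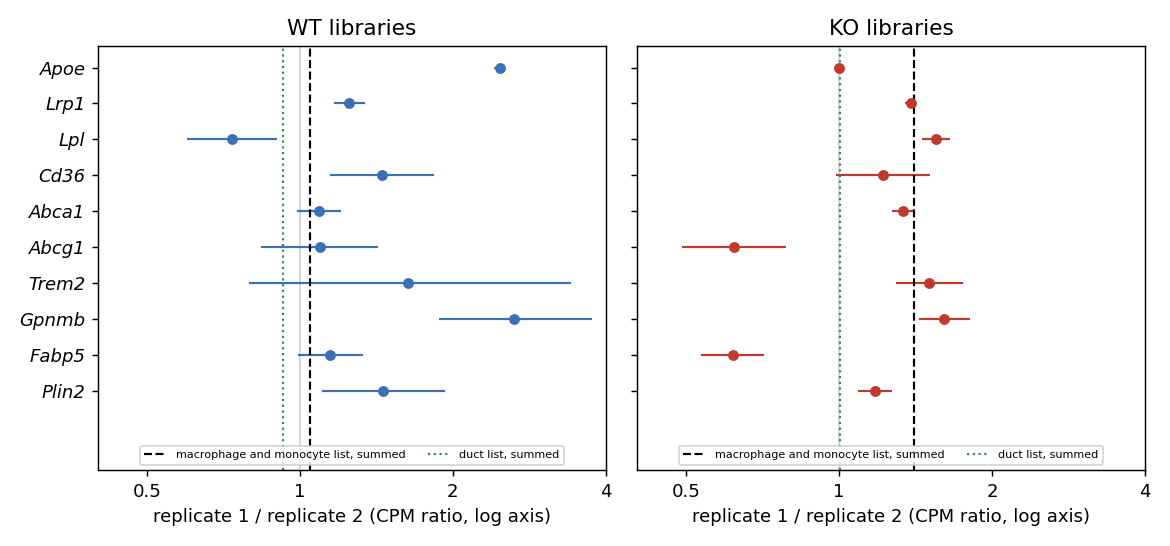
Ratio of replicate 1 to replicate 2 (CPM, log axis) for the 10 genes in wild type (left) and in the libraries labelled knockout (right), with 95% exact binomial intervals for counting error. Dashed and dotted lines mark the ratio of the summed macrophage and duct lists. On the right, Abcg1 and Fabp5 lie below 1 while Lpl, Trem2 and Gpnmb lie above the macrophage line.

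Macrophage and monocyte markers, 20 genes, were much higher in the libraries labelled knockout. They summed to 840 CPM in WT 1, 803 in WT 2, 7757 in KO 1 and 5520 in KO 2. Of the 20, 17 rose, with a median log2 change of 3.17. Adgre1, which encodes F4/80, went from 6.60 and 7.19 to 120 and 91.8 CPM (edgeR adjusted p = 1.61e-05). Csf1r, the receptor for macrophage growth factors, went from 69.8 and 61.6 to 746 and 468 CPM (edgeR adjusted p = 5.12e-05). Relative to 100 CPM of this sum, Trem2 was at 0.654 and 0.420 in wild type and at 0.986 and 0.921 in the libraries labelled knockout. Plin2 was at 3.83 and 2.74 against 3.27 and 3.91, and Lpl at 5.07 and 7.22 against 5.67 and 5.13, so these overlapped. Gpnmb, at 3.60 and 1.43 against 1.77 and 1.54, overlapped as well. The sum used as divisor was itself much higher in the libraries labelled knockout. Any gene that rose less than the sum, or did not change, is therefore lower on this scale by arithmetic. That held for the other 6 genes, in both knockout-labelled libraries against both wild-type ones, and does not show less RNA per macrophage. Apoe stood at 597 and 253 against 144 and 203, Lrp1 at 52.6 and 44.0 against 33.4 and 33.9, and Abca1 at 23.97 and 23.02 against 9.80 and 10.3. Cd36 stood at 5.23 and 3.78 against 0.459 and 0.528, Abcg1 at 3.60 and 3.44 against 0.288 and 0.651, and Fabp5 at 11.4 and 10.4 against 0.750 and 1.71. The part of macrophage RNA in the differences of the 10 genes was not tested.

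Other cell types moved too. Of the markers tested, 9 of 12 duct and 8 of 12 fibroblast and stellate genes rose (1 fibroblast gene fell), and 8 of 12 endothelial, 11 of 11 T and NK cell, 10 of 10 B cell, 9 of 10 dendritic cell, 8 of 8 smooth muscle, 2 of 12 acinar and 2 of 4 neutrophil genes fell. Without WT 1, WT 2, KO 1 and KO 2 in turn, 3, 5, 6 and 6 smooth muscle genes, 1, 2, 1 and 0 neutrophil genes and 2, 2, 10 and 11 acinar genes fell, and DESeq2 called 9 acinar genes lower. The fibroblast gene was not called lower without WT 2 or KO 2. The summed acinar genes stood at 48789 and 88517 CPM in wild type and at 162 and 3698 in the libraries labelled knockout. Adipocytes express Lpl, Cd36 and Plin2. Of 8 adipocyte genes tested, 3 rose and 1 fell (0 without WT 1 or KO 2), and the list summed to 98.4, 89.9, 140 and 108 CPM in WT 1, WT 2, KO 1 and KO 2. Cfd, adipsin, was at 0 in both wild-type libraries and at least 98.7-fold higher, and Adipoq, adiponectin, was at least 13.1-fold higher, both against 3 counts over the group. The adipocyte droplet protein Plin1 stayed at 0.275 to 1.81 CPM in every library, and Fabp4, the fatty acid binding protein of adipocytes and capillaries, stood at 55.0, 53.7, 52.9 and 46.1 CPM (edgeR adjusted p = 0.586). Pecam1, an endothelial adhesion molecule, showed a log2 change of -1.47 (edgeR adjusted p = 0.000307). The part of these cells in the differences of the 10 genes was not tested.

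The other genes of the same pathways were tested with all genes, in 9 lists of 152 genes. Background shares were 22.0% higher and 20.2% lower of all genes tested. Among 22 other genes of lipid-associated macrophages, 19 rose and 1 fell, with a median log2 change of 1.86. The macrophage and monocyte markers had a higher median of 3.17, and Lyz2 is on both lists. Fewer genes of the list passed with any 1 library left out, at medians of 1.84 to 1.97. The beta-glucan receptor Clec7a went from 14.6 and 12.6 to 372 and 237 CPM (log2 change 4.49, edgeR adjusted p = 1.63e-05). Spp1, osteopontin, went from 187 and 501 to 4332 and 4555 CPM (log2 change 3.69, edgeR adjusted p = 0.00397), but it is also a duct gene and did not pass without KO 1 or KO 2 (adjusted p = 0.199 and 0.214). Leaving out WT 2 gave a log2 change of 4.57. Cst7, the cystatin that marks activated microglia, fell from 12.6 and 16.0 to 0.402 and 0.647 CPM (log2 change -4.68, edgeR adjusted p = 0.000167). T and NK cells also express Cst7, and the 11 tested T and NK genes fell as well. The part of these cells in the fall of Cst7 was not tested.

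TREM2 partners split. Of 17 tested, 7 rose and 4 fell (median 0.005). Tyrobp, the adaptor through which TREM2 signals, went from 16.2 and 14.6 to 82.1 and 59.1 CPM (log2 change 2.19, edgeR adjusted p = 0.000206). Trem1, a related receptor of the same cluster that uses the same adaptor, rose from 1 and 3 counts to 290 and 295 (log2 change 6.68, edgeR adjusted p = 1.56e-05, and 7.47 without WT 2). Ms4a4a, a membrane protein linked to soluble TREM2, had 0 and 11 counts in wild type and 268 and 210 in the libraries labelled knockout (log2 change 5.01, edgeR adjusted p = 0.0101). That change was 4.15 without WT 1, no fold is given without WT 2 because WT 1 had 0 counts, and the gene did not pass without KO 1 (adjusted p = 0.168), without KO 2 (0.153) or with the replicate number as a block (0.135). Treml2, another member of the Trem family, fell by 2.56 and the adaptor Hcst by 2.73 in log2 units (adjusted p from edgeR = 0.000116 and 0.00198). B cells express Treml2 and NK and T cells Hcst, and the lists of both cell types fell. Their part in the falls of Treml2 and Hcst was not tested.

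Receptors that take up modified lipoproteins were mostly higher. Of 12 scavenger receptor genes tested, 9 rose and 2 fell (median 1.53). Olr1, a receptor for oxidised lipoproteins, went from 1.65 and 2.25 to 75.5 and 58.3 CPM (log2 change 5.07, edgeR adjusted p = 1.61e-05). Msr1, the macrophage scavenger receptor, went from 8.79 and 7.87 to 104 and 68.5 CPM (log2 change 3.37, edgeR adjusted p = 5.28e-05), and Cd68 rose by 2.36 (edgeR adjusted p = 0.00014). Marco, a scavenger receptor of marginal zone and lung macrophages, fell from 133 and 94.4 to 24.8 and 10.5 CPM (log2 change -2.70, edgeR adjusted p = 0.00693, and -3.43 without KO 1). Stab2, of sinusoidal endothelium, fell by 3.53 (edgeR adjusted p = 0.000287). The groups overlapped for Cd36, at 29.1 to 44.0 CPM, and were separate for Olr1 and Msr1.

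Among lipoprotein receptors of the Lrp1 family and their adaptors, 11 of 17 tested genes rose and 1 fell (median 0.63). The count of higher genes was 6 without WT 2 and 5 without KO 1. Lrp2, megalin, had 0 and 6 counts in wild type and 58 and 39 in the libraries labelled knockout (log2 change 3.57, edgeR adjusted p = 0.0106). That change was 2.72 without WT 1, none is given without WT 2 because WT 1 had 0 counts, and the gene did not pass without KO 1 or KO 2 (adjusted p = 0.112 and 0.0652). Vldlr stood at 23.6, 14.2, 13.9 and 19.1 CPM (edgeR adjusted p = 0.677). Sorl1, a sorting receptor, fell by 1.23 (edgeR adjusted p = 0.000989).

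Most apolipoproteins other than Apoe were higher in WT 1 than in WT 2, 11 of 13 listed, as the hepatocyte genes were. Of 7 tested, 1 rose and 0 fell by edgeR, 0 also at an unadjusted p under 0.05, while DESeq2 called 4 lower. Clusterin (Clu), an extracellular chaperone also known as apolipoprotein J, went from 1418 and 1453 to 4582 and 9525 CPM (log2 change 2.30, edgeR adjusted p = 0.00189, and 1.71 without KO 2). Apoa1 stood at 650, 9.44, 0 and 4.37 CPM and Apoc1, a neighbour of Apoe on chromosome 7 that macrophages also express, at 198, 6.07, 5.23 and 5.02 CPM in WT 1, WT 2, KO 1 and KO 2. Apoc1 thus did not share the difference of Apoe between WT 2 and the libraries labelled knockout. Without WT 1, 2 apolipoproteins were called lower, and without WT 2, when more genes passed the filter, 8.

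Around the liver X receptors, which induce both exporters, 5 of 19 tested genes rose and 2 fell (median 0.15). Without WT 2, 3 rose and 5 fell, and without KO 2, 0 fell. Arl4c, a small GTPase induced by these receptors, went from 60.7 and 68.8 to 176 and 401 CPM (log2 change 2.16, edgeR adjusted p = 0.0179). It lost its call without WT 1 or WT 2 (adjusted p = 0.0897 and 0.0792), and the log2 change was 1.48 without KO 2. Npc1, which moves cholesterol out of lysosomes, rose by 1.70 (edgeR adjusted p = 0.000168). The receptor gene Nr1h3, which encodes LXR-alpha, fell from 24.2 and 16.9 to 8.25 and 4.37 CPM (log2 change -1.71, edgeR adjusted p = 0.00748), and did not pass without KO 2 (adjusted p = 0.0532). Hepatocytes express Nr1h3, and leaving out WT 1 gave -1.42 (adjusted p = 0.0346). Abca7, another transporter of the Abca1 group, fell by 0.67 (edgeR adjusted p = 0.0202) and did not pass without WT 2, without KO 2 or with DESeq2 (adjusted p = 0.113, 0.104 and 0.0758).

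Partners of lipoprotein lipase changed in both directions. Of 17 tested genes of the lipase pathway and fatty acid uptake, 4 rose and 2 fell (median 0.13), and without WT 2 the counts were 2 and 4. Gpihbp1, which holds the lipase on capillary walls, stood at 8.24, 8.99, 9.06 and 12.0 CPM (edgeR adjusted p = 0.51). The acyl-CoA synthetases Acsl4 and Acsl3 rose by 1.54 and 0.93 (edgeR adjusted p = 0.000169 and 0.00915). Hepatic lipase (Lipc) fell by 4.21 (edgeR adjusted p = 0.00555) and endothelial lipase (Lipg) by 1.39 (edgeR adjusted p = 0.0149). Lipc did not pass without WT 1, where its change was -2.93, or without KO 1 or KO 2 (adjusted p = 0.0625, 0.0502 and 0.0615), and Lipg did not without WT 1 or KO 1 (adjusted p = 0.0554 and 0.0893). Without either WT 1 or KO 1, 0 genes of this list fell, and without KO 2, 1 fell.

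Droplet proteins other than Plin2 changed in both directions. Of 14 tested, 5 rose and 2 fell (median 0.26). Cidec, a fusion protein of adipocyte droplets, was counted 1 time in wild type, for a pooled ratio of 40.6 (95% exact binomial interval 7.0 to 1633, edgeR adjusted p = 0.00229). Its fitted log2 change was 5.08, and 4.09 without WT 2. Without WT 1 none is given, because WT 2 had 0 counts. Hilpda, a hypoxia-induced inhibitor of droplet lipolysis, went from 10.2 and 16.2 to 48.9 and 47.3 CPM (log2 change 1.86, edgeR adjusted p = 0.000781). G0s2, another inhibitor of the same lipase, fell by 1.94 (edgeR adjusted p = 0.00323). The monoglyceride lipase Mgll fell by 0.74 (edgeR adjusted p = 0.0392) but not past the threshold with any 1 library left out, with DESeq2 or with no filter (adjusted p from 0.0805 to 0.193).

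Transcription factors of the lysosomal and fatty acid programmes also split. Of 8 tested MiT/TFE and PPAR genes, 4 rose and 3 fell (median 0.72), and without WT 2 2 rose and 1 fell. Mitf, a regulator of Gpnmb, went from 4.397 and 5.84 to 16.7 and 20.1 CPM (log2 change 1.83, edgeR adjusted p = 0.00258). Tfec, its macrophage relative, rose by 2.62 (edgeR adjusted p = 0.017) but not past the threshold without WT 2, KO 1 or KO 2 (adjusted p = 0.099, 0.22 and 0.0503) or with DESeq2 (0.0784). The co-activators Ppargc1b and Ppargc1a fell by 2.04 and 1.55 (edgeR adjusted p = 0.00518 and 0.0258), and Ppargc1a did not pass with any 1 library left out (adjusted p from 0.0668 to 0.154) or with DESeq2 (0.141). Pparg stood at 3.85, 4.27, 4.63 and 8.26 CPM (edgeR adjusted p = 0.263).

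**Figure D4:**
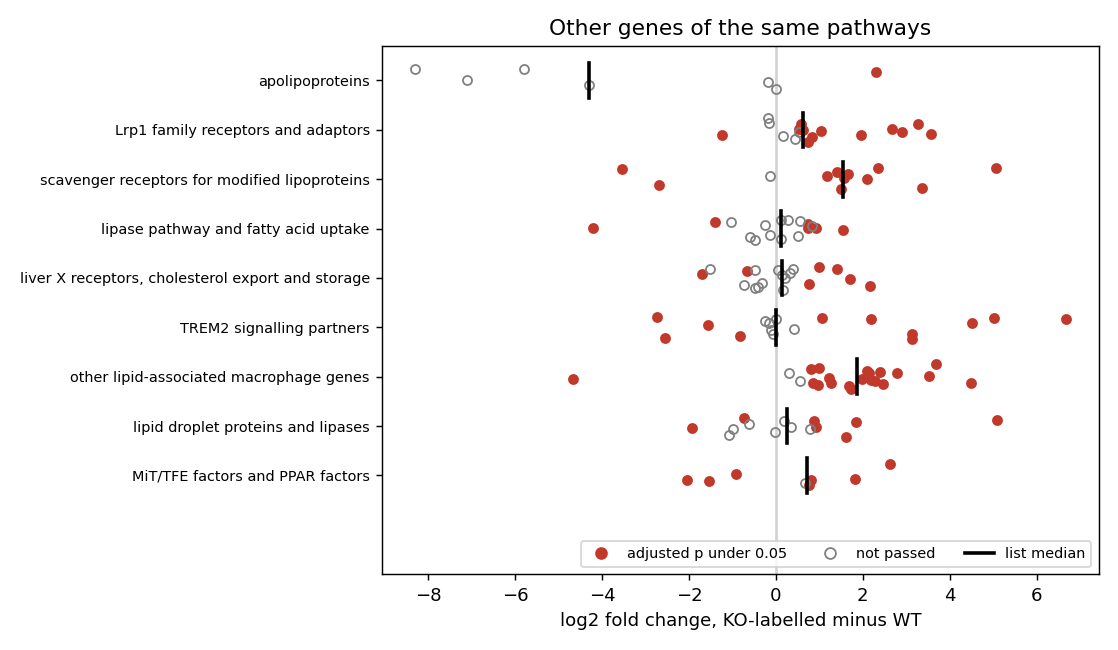
Log2 fold change (knockout-labelled minus wild type) of each tested gene in the 9 pathway lists, filled where the edgeR adjusted p was under 0.05, with a bar at the list median. The lists of lipid-associated macrophage genes and scavenger receptors lie mostly to the right, with medians of 1.86 and 1.53, and the apolipoprotein list has 4 unfilled points far to the left.

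The genes with the most similar profiles over the 4 libraries were found by the Euclidean distance of centred log2(CPM + 0.5) values among 9747 genes with a mean of at least 10 CPM. Nearest to Apoe were Adamts15 (distance 0.106), P2ry2 (0.234) and Ccbe1 (0.252), at much lower levels of 3.15 to 30.9 CPM. Nearest to Trem2 were Srpx2 (0.185), fibronectin (Fn1, 0.215) and Tlr2 (0.222). Nearest to Lpl were Pilra (0.145), the Fc receptor gamma chain Fcer1g (0.175) and Pla2g7 (0.183). With 4 libraries in 2 groups, such distances describe these libraries only.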

How the data were processed

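Each deposited file holds raw counts for the gene models of 1 library. Per the submitters' processing notes the build was mm10 and TopHat and edgeR were used. The counter, annotation, use of strand and treatment of multi-mapping reads are not stated in the labels. Coordinates (start counted from 0 in the files, from 1 here) equalled GENCODE M21 for 86.6% of models. Counts were filtered (filterByExpr), TMM-scaled and tested with edgeR 4.0.16 in R 4.3.3 (glmQLFit, robust; glmQLFTest; genotype only; 2 residual degrees of freedom), with Benjamini-Hochberg adjustment over 13990 genes. The procedure was also run on simulated counts with 200 genes changed, far fewer than the 5909 called here. That run gives no error rate for these data. DESeq2 1.42.0 was an alternative. The members and lists were chosen with earlier results of these data known, and the hepatocyte list after values were seen. Named genes are the members, up to 2 risers and 2 fallers per pathway list past the threshold, 15 anchors, leading markers and nearest profiles, some of which are not reported here. Further genes were named after their values were seen: Apoa1, Apoc1, Alb, Fgb, Serpina1c and Krt19.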

Additional observations from a re-analysis of the deposited data

How the results depend on the processing

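The differences of Apoe, Lrp1, Lpl, Abca1, Trem2, Gpnmb and Plin2 kept their direction under upper quartile and RLE scaling, DESeq2, no filter on low counts, the replicate block and leaving out each library. Upper quartile scaling gave an all-gene median of -0.20 (-0.01 with TMM) and 39.4% of calls higher (52.1% with TMM). The median of the 10 genes lay between 1.80 and 2.56 without 1 library. With upper quartile scaling 2 lipase pathway genes rose and 5 liver X receptor list genes fell, and 5 of the latter also fell with no filter. With DESeq2, 4 apolipoproteins, 1 droplet gene and 1 MiT/TFE or PPAR gene fell, the median of the last list being -0.0850. With no filter, 1 apolipoprotein and 1 droplet gene fell and that median was -0.0474. Leaving out 1 library, lower genes numbered 1867 to 2276, and the fewest came without KO 2. Apolipoproteins that fell numbered 0 to 8, with a median of -6.22 to -0.23. Among Lrp1 family receptors and adaptors 5 to 8 rose. In the lipase pathway 2 to 4 rose and 0 to 4 fell, in the liver X receptor list 3 to 6 rose and 0 to 5 fell, among droplet genes 1 to 2 fell, and among MiT/TFE and PPAR genes 2 to 3 rose and 1 to 2 fell, with a median of 0.22 to 0.70. The cause was not tested. Same-numbered libraries shared only a number (correlation of deviations 0.04). With the replicate block 6656 genes changed against 5909, and 5 liver X receptor list genes fell. Of 53 named gene results, leaving out 1 library ended 6 to 11 calls. With 1 library left out, the lone sample is assumed to vary like the other group. Depth limits Trem2 in wild type, at 15 and 20 counts.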
